A study of Homo sapiens with 6 samples.

Results

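The HOX cluster genes are the homeobox transcription factor genes HOXA, HOXB, HOXC and HOXD, which lie in 4 clusters on chromosomes 7, 17, 12 and 2. The 38 members described here were chosen by gene name alone, from 20033 protein-coding genes of the annotation, and the rule uses no binding value, although it was set with earlier results of these data known. The data are peak lists of CUT&RUN, a method in which an antibody tethers a nuclease to chromatin and the released fragments are sequenced. An antibody against ZNF469, a zinc finger protein, was used in LX-2, an immortalized human hepatic stellate cell line. One group of 3 libraries came from cells carrying full-length ZNF469 (clone 3.4), and the other group of 3 from cells carrying dZF-ZNF469 (clone 3.1), from which a stretch holding most zinc fingers was deleted. Both transgenes were HA-tagged, were inserted by piggyBac transposition under Geneticin selection and were switched on by doxycycline at 1 ug/mL for 24 h, in medium with an ascorbic acid phosphate. The measurements are therefore of an overexpressed protein in 1 cell line, and construct and line cannot be told apart. The labels do not say whether the clone numbers name cells or plasmids.

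The full-length list held 19108 regions and the dZF list held 54. Each list pools its 3 libraries, so no value per library, no replicate error and no test could be given. Every comparison here is therefore a description beside the same measure over all regions or all genes. For each region, the number of fragments over the summit (pileup) and the number expected there (local background) were recovered from the list, and the fold is (pileup + 1)/(background + 1). The full-length list had a median pileup of 20 fragments (quartiles 16 and 27), a median background of 1.82 and a median fold of 7.36. The interval given with each pileup is a 95% exact Poisson interval, and it covers no error other than that of counting.

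HOX genes encode DNA-binding proteins that give cells their position along the body axis. The order of the genes within a cluster follows the order in which they are expressed from head to tail, and adult fibroblasts and other mesenchymal cells keep a HOX pattern that reflects where in the body they came from. The clusters arose by duplication of an ancestral cluster, so genes with the same number, such as HOXA5, HOXB5 and HOXC5, are paralogs. Low-numbered (anterior) genes respond to retinoic acid. Polycomb and Trithorax group complexes keep clusters silent or active, and PBX and MEIS proteins bind DNA together with HOX proteins.

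Regions lay over a start in each of the HOXA, HOXC and HOXD clusters, and the sequence around 1 summit of each is shown as an example of a full-length region over a HOX start. HOXA5 belongs to the paralog group in which every member had a region at its start or directly before it, and acts in the patterning of the neck and thorax and of the lung. HOXC4 is the most anterior HOXC gene, and HOXD11 is the only HOXD gene with a region over its start. The bases within 50 of the summit are given on the strand of the gene (hg38), 5′ to 3′. Capitals mark TGTGGT, the core of RUNX sites, in HOXC4, and no other motif sought here had a match within these bases. HOXA5 is read from the minus strand of chr7:27143707-27143807, HOXC4 from the plus strand of chr12:54016770-54016870 and HOXD11 from the plus strand of chr2:176104371-176104471.
HOXA5: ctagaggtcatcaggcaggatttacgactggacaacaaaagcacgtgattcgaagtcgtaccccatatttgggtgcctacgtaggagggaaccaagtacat
HOXC4: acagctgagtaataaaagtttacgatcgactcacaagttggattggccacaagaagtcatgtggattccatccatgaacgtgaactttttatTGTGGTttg
HOXD11: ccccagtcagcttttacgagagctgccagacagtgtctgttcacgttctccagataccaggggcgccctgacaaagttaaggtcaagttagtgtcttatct

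The 4 HOX windows spanned 675.4 kb and held 16 full-length regions, which covered 6423 bp (0.951%). This is 2.37 regions per 100 kb, where the genome as a whole had 0.65. The regions were unevenly divided, and 10 of the 16 fell in the HOXB window. HOXA, HOXC and HOXD held 2 each. The dZF list had 0 regions in the windows, and also 0 when 100 kb was taken on each side. That list holds only 54 regions over the whole genome, so its absence here is not read as a result about HOX clusters. The nearest dZF region was 29.2 Mb from the HOXA window, 21.6 Mb from HOXB and 31.8 Mb from HOXD, and chromosome 12 had none.

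**Figure D1:**
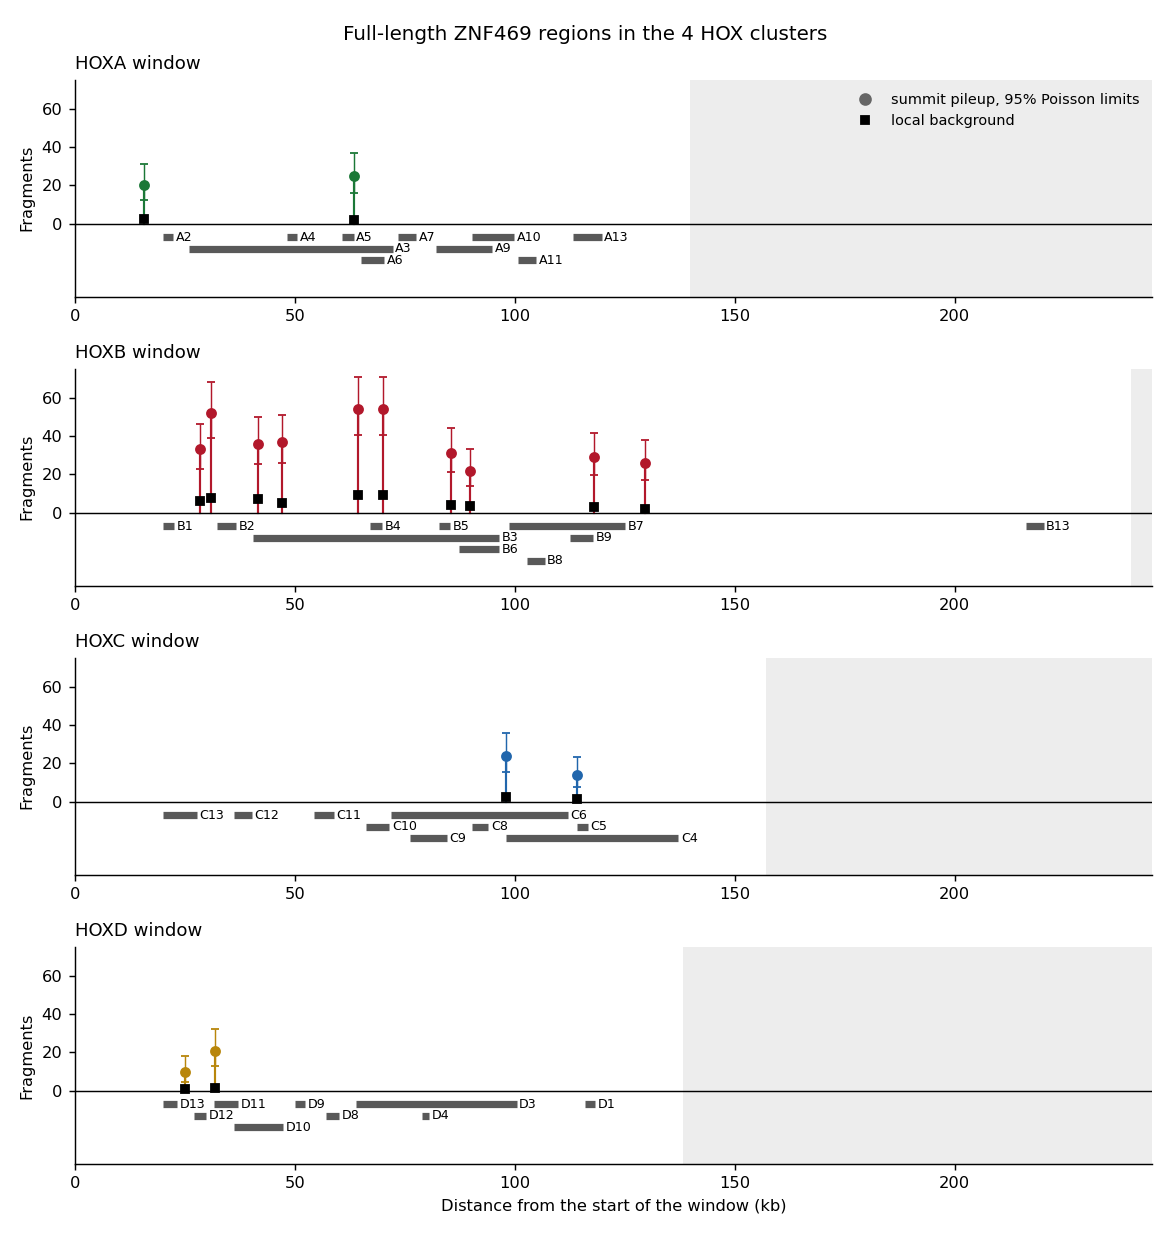
Full-length ZNF469 regions in the 4 HOX windows by distance from the window start (kb, x axis). Circles are summit pileups in fragments with 95% Poisson limits, black squares the local background, grey bars the genes (A5 is HOXA5, and so on), and grey shading lies beyond the window. The 10 HOXB regions run from HOXB1 to beyond HOXB7, with pileups of 22 to 54, and the other windows hold 2 regions each, with pileups of 10 to 25.

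A full-length region lay less than 3 kb from an annotated transcript start of 11 of the 38 HOX genes (28.9%), against 27.5% of all protein-coding genes. Regions overlapped a start base itself in 6 HOX genes (15.8%), against 16.5% of protein-coding genes. A region fell between the first and last base of 11 HOX genes (28.9%), against 33.6%. As a family, the HOX genes were therefore near the genome-wide share on all 3 measures. The 6 genes with a region over a start were HOXA5, HOXB4, HOXB5, HOXB9, HOXC4 and HOXD11. Those with a region within 3 kb but not over a start were HOXB3, HOXB6, HOXC5, HOXC6 and HOXD12. HOXA3 and HOXB7 had a region in the body alone, and 25 genes had neither. No HOX gene had a dZF region within 3 kb or in its body, where the dZF shares of all protein-coding genes were 0.0399% and 0.0499%, so that a count of 0 among 38 genes is near the background.

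By cluster, 5 of 10 HOXB genes (50.0%), 3 of 9 HOXC genes (33.3%), 2 of 9 HOXD genes (22.2%) and 1 of 10 HOXA genes (10%) had a region within 3 kb of a start. Without HOXB, the count was 6 of 28 (21.4%). The genes are not independent of each other, since 1 region can serve several. The region at the HOXC4 start was also the one that placed HOXC6 within 3 kb, and the region at the HOXB4 start lay 0.67 kb from a start of HOXB3. HOXA3, HOXB3, HOXB7, HOXC4 and HOXC6 have transcripts that run over neighbouring genes, HOXB3 over 56.0 kb, so that the 6 regions in its body include those at HOXB4, HOXB5 and HOXB6.

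By paralog group, all 3 genes of group 5 had a region within 3 kb, at distances of 0 to 0.015 kb from the start. In group 4, HOXB4 and HOXC4 had a region over a start, while the nearest region lay 12.8 kb from HOXA4 and 47.0 kb from HOXD4. In group 6, HOXB6 and HOXC6 were within 3 kb of an alternative start, at 0.819 and 0.821 kb, and HOXA6 was at 3.94 kb. From the outermost 5′ ends, the distances were 6.61 kb for HOXB6, 26.1 kb for HOXC6 and 6.77 kb for HOXA6. Group 3 had HOXB3 alone within 3 kb, with HOXA3 at 3.39 kb and HOXD3 at 32.1 kb. The outermost 5′ end of HOXB3 was 6.53 kb from a region. Groups 9, 11 and 12 each had 1 gene, HOXB9, HOXD11 and HOXD12. Groups 1, 2, 7, 8, 10 and 13 had none.

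Groups 1 to 5 hold the genes of anterior identity, and 6 of their 14 members (42.9%) had a region within 3 kb. Groups 6 to 13 had 5 of 24 (20.8%). This split was made with the values known and rests on few regions. Group 13, whose genes act in the distal limbs and the urogenital tract, was far from any region in HOXA13 (51.8 kb), HOXB13 (66.8 kb) and HOXC13 (77.9 kb), and HOXD13 lay at 4.97 kb. The median distance from a start to the nearest region was 7.08 kb over the 38 genes and 25.9 kb over all protein-coding genes. It was 2.17 kb in HOXB, 12.5 kb in HOXA, 16.6 kb in HOXC and 18.2 kb in HOXD, and the gene farthest away was HOXD1 at 84.1 kb. HOX genes are packed closely, so 1 region sets the distance of several. The region at the HOXA5 start was the nearest for every HOXA gene from HOXA3 to HOXA13. The medians of HOX genes and of all protein-coding genes are therefore not like for like.

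**Figure D2:**
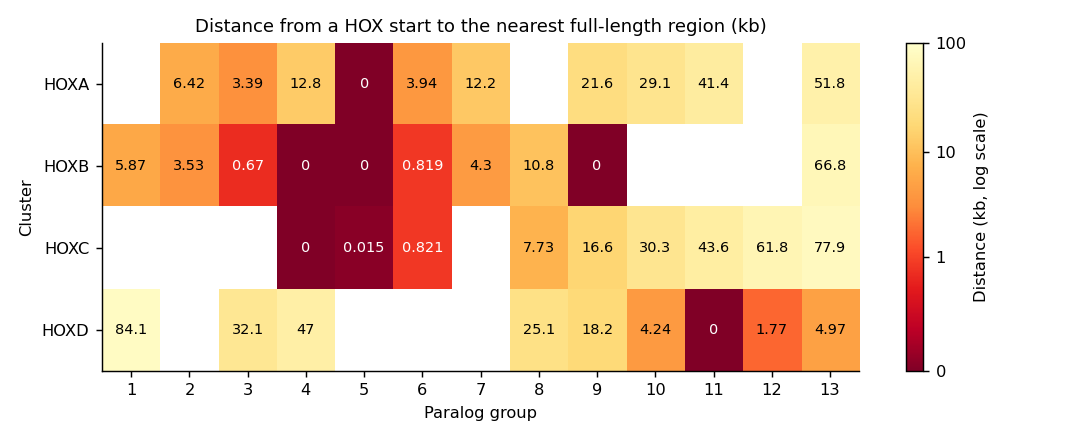
Distance in kb (number and colour, log colour scale) from any annotated start of each of the 38 HOX genes to the nearest full-length region, by paralog group (columns) and cluster (rows). White cells hold no member. Group 5 is at 0 to 0.015 kb in all of its 3 genes, and the HOXB row is dark from group 3 to group 6 and at group 9.

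The HOXB cluster, on chromosome 17, held the longest series of regions. Its window of 240.2 kb held 10 regions that covered 4299 bp (1.79%), or 4.16 per 100 kb, and chromosome 17 as a whole had 1.09. When the genome was laid out in consecutive stretches of that length, 139 of 12254 (1.13%) held as many, with a median of 1 and a maximum of 20. On chromosome 17, 10 of 346 stretches did (2.89%). For the 2 regions of the other windows, the corresponding shares of the genome were 22.5% for HOXA, 25.2% for HOXC and 22.5% for HOXD, and on their own chromosomes 18.2%, 32.8% and 22.6%. HOXB was thus in the sparse upper tail of stretches, and counts like those of the other windows were common. All windows were chosen on genes, and stretches without genes are included in these shares.

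**Figure D3:**
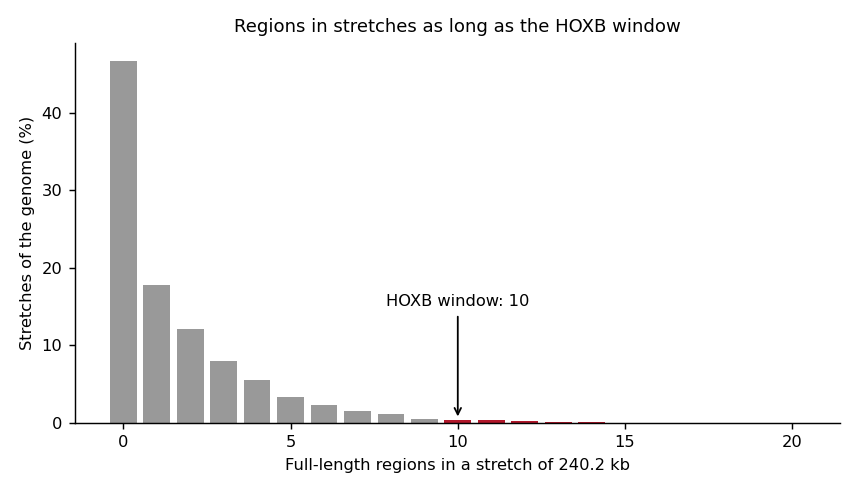
Share of consecutive genome stretches of 240.2 kb (y axis, percent) by the number of full-length regions they hold (x axis). Stretches with 10 or more regions, the number in the HOXB window, are in red and make up 1.13%.

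HOXB1, expressed in the hindbrain, and HOXB2 are the most anterior HOXB genes. The region at chr17:48536876-48537252, 5.87 kb upstream of HOXB1 and in no annotated gene, had a pileup of 33 (22.7 to 46.3) over a background of 5.94, a fold of 4.9. The next, at chr17:48539217-48539617, lay past the 3′ end of HOXB2 in no annotated gene and 3.53 kb from one of its starts. Its pileup was 52 (38.8 to 68.2), its background 7.65 and its fold 6.13, and its −log10 p of 26.0 was the highest among the HOX regions. Neither gene thus had a region within 3 kb, although both regions stood between them.

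HOXB3 and HOXB4 act in the hindbrain and in blood stem cells, among other tissues. The region at chr17:48549999-48550247 overlapped an exon of HOXB3 and an intron of HOXB-AS1, with a pileup of 36 (25.2 to 49.8), a background of 7.02 and a fold of 4.61. That at chr17:48555358-48555635 fell on a coding exon of HOXB3, 0.886 kb from a start, with a pileup of 37 (26.1 to 51.0), a background of 5.29 and a fold of 6.04. A further one, at chr17:48572658-48573102 in an intron of HOXB3, had a pileup of 54 (40.6 to 70.5), a background of 9.17 and a fold enrichment of 5.41. The region over the HOXB4 start, chr17:48578301-48578687, had its summit 83 bp upstream, with the same pileup of 54 (40.6 to 70.5), a background of 9.48 and a fold of 5.25. This region ranked 283 among 19108 by pileup, 73 by background and 17556 by fold. It was thus near the top of the list by fragments and near the bottom by fold.

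HOXB5 had a region over its start, chr17:48593541-48594049, with the summit 151 bp upstream. Its pileup was 31 (21.1 to 44), its background 3.78 and its fold 6.69. The next region lay on a coding exon of HOXB6 at chr17:48597953-48598380, with a pileup of 22 (13.8 to 33.3), a background of 3.57 and a fold of 5.03. HOXB9, which acts in the thoracic skeleton, had a region over its start at chr17:48626121-48626897, 777 bp wide and the widest of the HOX regions, with a pileup of 29 (19.4 to 41.6), a background of 2.82 and a fold of 7.85. It also lies in an intron of HOXB7. The last region, chr17:48637869-48638316, was in an intron of the long noncoding RNA gene LINC03057 and 4.3 kb upstream of HOXB7, with a pileup of 26 (17 to 38.1) and a background of 1.81. Its fold of 9.6 was the highest of all HOX regions. Over the 86.4 kb from there to HOXB13, which sits apart from the rest of the cluster, no region was called.

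The local background thus ran along the HOXB cluster. It was between 5.29 and 9.48 in the 6 regions from HOXB1 to HOXB4, and 3.78, 3.57, 2.82 and 1.81 in the 4 from HOXB5 to beyond HOXB7. A background of 3 fragments or more occurred in 8 of 10 HOXB regions (80.0%) and in 0 of the 6 others, against 16.8% of all full-length regions and 23.1% of those on chromosome 17. A pileup of 30 or more occurred in 7 of 10 (70.0%) and 0 of 6, against 18.5% and 26.4%. These cuts were chosen after the values were seen. The median HOXB region had a pileup of 34.5, a background of 5.62 and a fold of 5.72, while the median of the 6 others was 20.5, 1.62 and 7.09 and that of chromosome 17 was 23, 2.15 and 7.35. By median, HOXB regions therefore stood above the others in fragments and below them in fold. Not every HOXB region did, since those at HOXB9 and upstream of HOXB7 had folds of 7.85 and 9.6, and the HOXB6 pileup was 22. Since the fold divides by the local background, a given number of fragments yields a lower fold where the background is higher.

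**Figure D4:**
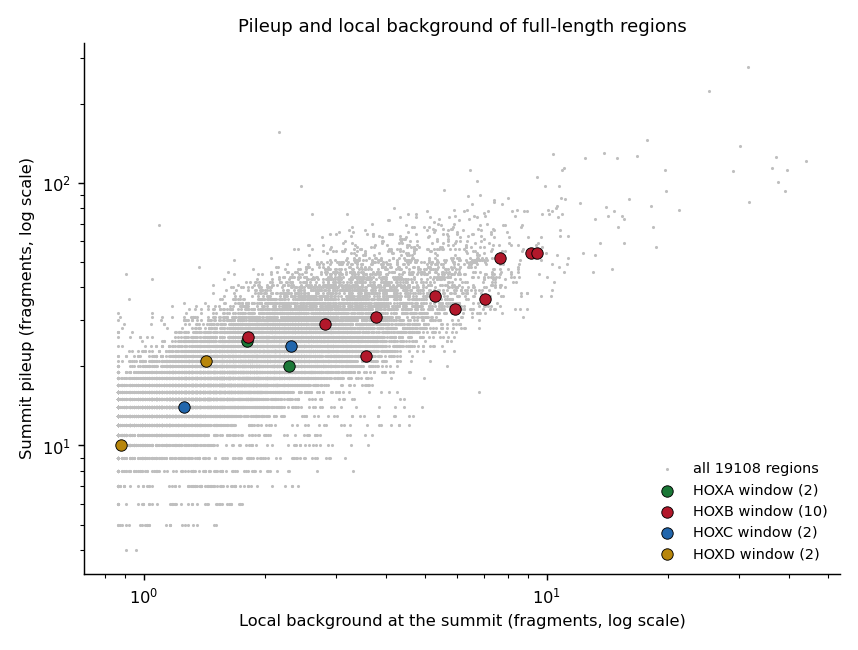
Summit pileup (y axis, fragments) against local background (x axis, fragments) on log scales for all 19108 full-length regions (grey) and the 16 HOX regions (coloured by cluster). The HOXB regions between HOXB1 and HOXB4 lie at backgrounds of 5.29 to 9.48, with folds of 4.61 to 6.13 against a median of 7.36. The HOXA, HOXC and HOXD regions have backgrounds of 0.876 to 2.32.

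Within 100 kb of the HOXB genes but outside the window, 5 full-length regions lay on the HOXB1 side and 2 on the HOXB13 side. The one with the highest pileup, chr17:48472545-48473506, was 57.4 kb from HOXB1 and in no annotated gene. It had a pileup of 76 (59.9 to 95.1), a background of 4.52 and a fold of 13.9, and ranked 60 by pileup and 128 by fold in the whole list. Both chr17:48483191-48484221 and chr17:48486586-48486927 had a pileup of 41, over backgrounds of 7.26 and 7.73. The pileups of these 3 lay within or above the range of the HOXB1 to HOXB4 stretch, and the background of the first was below it. Of the other regions on that side, the nearest, chr17:48497189-48497506, had a pileup of 26 and a background of 3.12, and that farthest away, chr17:48441360-48441627, had 14 and 1.56. On the HOXB13 side, the region in an intron of TTLL6, 66.8 kb from HOXB13, had a pileup of 16 and a background of 1.88, and the other, at 96.9 kb, had 13 and 1.4.

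The HOXA window had 2 regions over 139.7 kb. The region at chr7:27143611-27143832 lay over the start of HOXA5, with the summit 76 bp upstream, a pileup of 25 (16.2 to 36.9), a background of 1.8 and a fold of 9.28. It is also within introns of HOXA3 and of the antisense gene HOXA-AS3. The other, chr7:27095826-27096268, lay over a start of HOTAIRM1, a long noncoding RNA gene induced by retinoic acid in myeloid cells, with a pileup of 20 (12.2 to 30.9), a background of 2.3 and a fold of 6.37. From HOXA7 to HOXA13 no region was called, and the distances rose from 12.2 to 51.8 kb.

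The HOXC window had 2 regions over 157.2 kb, 15.7 kb apart. That at chr12:54016718-54017058 lay over a start of HOXC4 and overlapped an exon of HOXC6. Its summit was 111 bp upstream of the HOXC4 start, with a pileup of 24 (15.4 to 35.7), a fold of 7.54 and a background of 2.32. The other, chr12:54032758-54033035, ended 0.015 kb before the start of HOXC5 in an intron of HOXC4, with its summit 151 bp upstream of HOXC5, a pileup of 14 (7.65 to 23.5), a fold of 6.65 and a background of 1.26. The summits of HOXB5 and HOXC5 thus lay at the same distance from the start. The posterior genes HOXC8 to HOXC13, among them HOXC10 and HOXC11, expressed in the hindlimb field, had none nearer than 7.73 kb.

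The HOXD window had 2 regions over 138.2 kb, 6.03 kb apart, both among the posterior genes that pattern limbs and genitalia. The region over the HOXD11 start, chr2:176104052-176104551, had a summit 205 bp inside the gene, a pileup of 21 (13 to 32.1), a fold of 9.05 and a background of 1.43. The other, chr2:176097687-176098026, lay in no annotated gene 1.77 kb upstream of HOXD12, with a pileup of 10 (4.8 to 18.4) and a background of 0.876, both the lowest among the HOX regions, and its fold was 5.87. HOXD1, HOXD3 and HOXD4 were 84.1, 32.1 and 47.0 kb from the nearest region, so the anterior end, where HOXB had its highest pileups, was without a call in HOXD.

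Noncoding genes of the clusters were described next. Of 18 listed long noncoding RNA genes, 4 held a region between their ends, namely HOTAIRM1, HOXA-AS3 and HOXB-AS1 with 1 each and HOXB-AS3 with 6, and the background over 18866 long noncoding RNA genes was 14.7%. Regions lay within 3 kb of a start in 4, HOTAIRM1, HOXB-AS2, HOXB-AS3 and HOXB-AS4, against 12.5%. HOTAIRM1 alone had a region over a start. HOXB-AS3 runs antisense over the same stretch as HOXB3 and its 6 regions are the same ones, so that CUT&RUN, which has no strand, cannot assign them to either gene. HOTAIR, transcribed from HOXC and known to bind Polycomb proteins, was 41.8 kb from a region, HOTTIP of the HOXA end 54.7 kb, HOXA11-AS 40.7 kb and HAGLR of HOXD 73.0 kb. Over all 65 noncoding genes of the windows, 8 had a region in the body, and no share over all noncoding genes is given. Of the 31 long noncoding RNA genes of the windows, 7 did, beside the 14.7% above, and several share the same regions.

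The microRNA genes of the clusters repress HOX transcripts among other targets. None of 6 overlapped a region. They are 0.07 to 0.11 kb long, and no share over all microRNA genes is given. The count of 0 is therefore not read as a result about them. MIR10A, between HOXB4 and HOXB5, was 1.26 kb from the region at the HOXB4 start, and MIR615, inside HOXC5, was 0.915 kb from the HOXC5 region. The distances were 5.31 kb for MIR196A1, 25 kb for MIR196A2, 25.7 kb for MIR196B and 45.8 kb for MIR10B.

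Sequence around the 16 summits lay between all full-length regions and those near starts in base composition. Over the bases within 100 of the summit, the median GC content was 50.0% (34.8% to 64.7%), against 45.3% in all full-length regions and 56.2% in those within 3 kb of a protein-coding start. The median number of CpG dinucleotides was 8.5, against 2 and 9. Of the motifs sought on both strands, TGANTCA of AP-1 was in 3 of 16 windows (18.8%), against 42.0% of all full-length regions and 23.5% of those near starts. The RUNX core TGTGGT was in 3 (18.8%, against 17.5% and 11.4%), the TEAD core GGAATG in 2 (12.5%, against 21.1% and 14.5%), and GGNGGCAG, part of the CTCF site, in 0 (against 5.52% and 8.0%).

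The HOX and PBX composite form TGATNNAT was in 4 of 16 windows (25%), against 15.4% and 7.94%. The regions at HOTAIRM1 and HOXA5 were among the 4. With 16 windows, each window weighs heavily in such a share, and a match of letters is not a bound site. None of these motifs was found in 7 windows (43.8%), against 32.3% and 52.7%. AP-1 matches lay at the region past HOXB2, at that upstream of HOXB7 and at HOXD11.

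Genes that work with HOX proteins or regulate the clusters were read from the same list. Of 8 genes for PBX, MEIS and PKNOX cofactors, PBX3 and MEIS1 had a region within 3 kb of a start, and PBX3, PBX4, MEIS1 and MEIS2 one in the body. Of 6 chromatin regulators, KMT2A and MEN1, which maintain HOX expression, EZH2 and EED of the Polycomb complex PRC2, and CTCF had a region within 3 kb. The EED region lay at an internal start, 26.6 kb from the 5′ end, and SUZ12 was 35.0 kb from a region. Of the retinoic acid receptor genes, RARA had a region at an internal start, 8.81 kb from its 5′ end. Its pileup was 59 and its fold 12.2. RARB had a region with a pileup of 20 at an internal start, among 6 in its body with pileups of 14 to 37. RARG was 8.64 kb away. Of 13 linked and ParaHox homeobox genes, 0 had a region within 3 kb or in the body. These counts of 2 of 8, 5 of 6, 2 of 3 and 0 of 13 stand beside 27.5% of protein-coding genes, and no dZF region lay at any of them.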

How the data were processed

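CUT&RUN with anti-ZNF469 was performed by the authors on 3 libraries per construct. The deposited files are 1 narrowPeak list per group, holding an irreproducible discovery rate score, a fold enrichment and a −log10 p-value per region, as deposited by the authors. Comparison columns were absent, and the −log10 q-value was not used here. The submitters' processing notes name Bowtie2 2.3.4.3, MACS2 2.2.5, deepTools 3.5.1, R 4.2.1, bcl2fastq and hg38, without roles. Read totals of the libraries were not used here.

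The pileup was recovered as the whole number that fits both the deposited fold and the −log10 p-value under the MACS formulas, tested on simulated data. Regions were placed on GENCODE version 44, with an overlap of at least 1 bp. Starts are those of any annotated transcript, promoters reach 3 kb, and bodies run from first to last base. Windows add 20 kb to each side of a cluster. Python 3.11.15, numpy 2.4.6, scipy 1.17.1, pandas 2.3.3, pysam 0.24.0 and matplotlib 3.10.9 were used.

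All 38 members and every region of the windows were named by rule, as were the listed noncoding, cofactor and regulator genes. The members and lists were chosen with earlier results of these data known. Positions count from 1. Alternatives were the upper part of the list by fold or by pileup, other flanks, other promoter definitions and the summit in place of the region. One cofactor gene and the sequences of some regions are not reported here.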

Additional observations from a re-analysis of the deposited data

How the results depend on the processing

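Of 61 alternatives over 11 results, 34 stayed within 1.5 times the reported count or density, or for medians within 1 SD over the HOX regions, and 27 moved further. Keeping the upper 50% of regions by fold left 1 region in HOXA, 2 in HOXB, 1 in HOXC and 1 in HOXD. It left 5 HOX genes with a region within 3 kb (16.0% of protein-coding genes), 7 with one in the body (22.4%), 3 noncoding genes and 0.74 regions per 100 kb. The upper 25% by fold left 1, 1, 0 and 1 regions, 2 genes (8.89%), 3 in the body (13.5%), 3 noncoding genes and 0.444 per 100 kb. The upper 25% by pileup left 0 in HOXA, HOXC and HOXD and 8 in HOXB, 4 genes (7.76%), 5 in the body (10.8%), 2 noncoding genes and 1.18 per 100 kb. Fewer regions enter by construction, so counts fall. The counts of noncoding genes have no background share beside them. HOXB kept most of its regions by pileup and few by fold, and the cause was not tested. Without flanks HOXA held 1 region. With 100 kb flanks HOXA held 4 and HOXB 17. By summit, 7 HOX genes had a region in the body (27.2%). A promoter of 1 kb gave 10 genes (23%). The outermost 5′ end alone gave 8 (21.1%), without HOXB3, HOXB6 and HOXC6. The count of dZF regions was 0 throughout. Only the 100 kb flanks could have raised it, and all of its alternatives are among the 34.

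With 1 pooled list per group there is no spread between libraries, and none was left out. No paired analysis was possible because the lists pool their replicates. Pileups of 10 to 54 limit the precision of each region, and regions below the calling threshold were not analysed here, so a gene without a region is a gene without a call.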
